A study of Drosophila melanogaster with 3 samples.

Results

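The genes described here encode the proteins of the cytosolic ribosome. They were taken from the dm6 annotation as the protein-coding genes whose symbol starts with RpL or RpS, or with RpLP for the stalk proteins, followed by a number. The rule found 92 of 13968 protein-coding genes, 54 for the large subunit and 38 for the small subunit, and it used no measured value. It takes in duplicate copies and "-like" genes, whose place in the ribosome is less well established.

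Ribosomal protein genes are short, strongly transcribed genes whose products are needed in near equal amounts. In flies many of them start at a pyrimidine-rich initiator, the TCT element, in place of the usual initiator, and the factors Trf2, M1BP and Dref are known to act at their promoters. Several of the genes have second copies, some of which are known mainly from the germ line. Dek is a conserved chromatin protein that has been described as a histone chaperone.

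Dek was mapped by chromatin immunoprecipitation and sequencing (ChIP-seq) in whole *Drosophila melanogaster* embryos aged 0 to 24 h, males and females pooled. They came from a transgenic line that stably expresses Dek with GFP fused to its C terminus, and the precipitation used an antibody against GFP. The labels give 3 biological replicates of 1 group, fragments of 200 to 800 bp after sonication, and no second genotype or untagged line among the samples analysed here. Whole embryos mix cell types and stages, so binding in few cells and weak binding in many cannot be told apart.

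The 5 deposited lists were 1 of 30000 peaks for each replicate, 1 of 30000 peaks called on the pooled replicates, and a list of 4736 peaks kept after an irreproducible discovery rate (IDR) threshold. The IDR peaks were the 4736 strongest pooled peaks, so a replicate was compared with them through its own 4736 strongest peaks. A gene was said to have a peak when a summit lay within 500 bp of any of its transcription start sites (TSS), and its place is the rank of its strongest such summit in a list, 1 being the strongest. Signal is the authors' value per peak, in an unstated unit, and it was compared within a list only. The lower parts of the 30000-peak lists hold peaks with a −log10 q as low as 0.186, 0.406 and 0.407 in replicates 1, 2 and 3, so a place far down these lists is weak evidence of a peak. Read depth is unknown.

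Most ribosomal protein promoters carried a Dek-GFP peak. An IDR peak lay at 61 of the 92 genes (66.3%, 95% exact interval 55.7 to 75.8), where 22.8% of all protein-coding genes had one. The 4736 strongest peaks gave 55 genes in replicate 1, 61 in replicate 2 and 65 in replicate 3, a mean share of 65.6% ± 5.47 (SD, n = 3), beside 21.8%, 23.9% and 20.8% of all protein-coding genes. In the pooled list 76 genes (82.6%) had a summit, beside 48.8%. The share was above that of all genes in each of these lists. The genes of the mitochondrial ribosome, which are named by the same scheme with an m in front, had an IDR peak at 34 of 73 (46.6%).

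Agreement between the replicates was uneven from gene to gene. A summit among the strongest peaks of all 3 replicates was found at 44 of the 92 genes (47.8%), beside 13.1% of all protein-coding genes. Of the 61 genes with an IDR peak, 43 (70.5%) were in all 3, and the same held for 56.5% of all protein-coding genes with an IDR peak. Replicate 1 had no summit at all, in its 30000 peaks, at 6 of the 61 genes (RpL28, RpL36, RpL37A, RpLP0-like, RpS2 and RpS3A), replicate 2 lacked none of them and replicate 3 lacked RpS3. Of all 3185 protein-coding genes with an IDR peak, 2974, 3151 and 3103 had a summit in replicates 1, 2 and 3. Replicate 1 thus lacked the most there too. The median place over all 92 genes, with a gene without a summit counted behind the end of the list, was 2960, 2621 and 2607 in the replicates (2729 ± 200.0, SD, n = 3). For all 13968 genes, the same median was beyond the end of the list in replicate 1, 25166 in replicate 2 and 29786 in replicate 3.

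**Figure D1:**
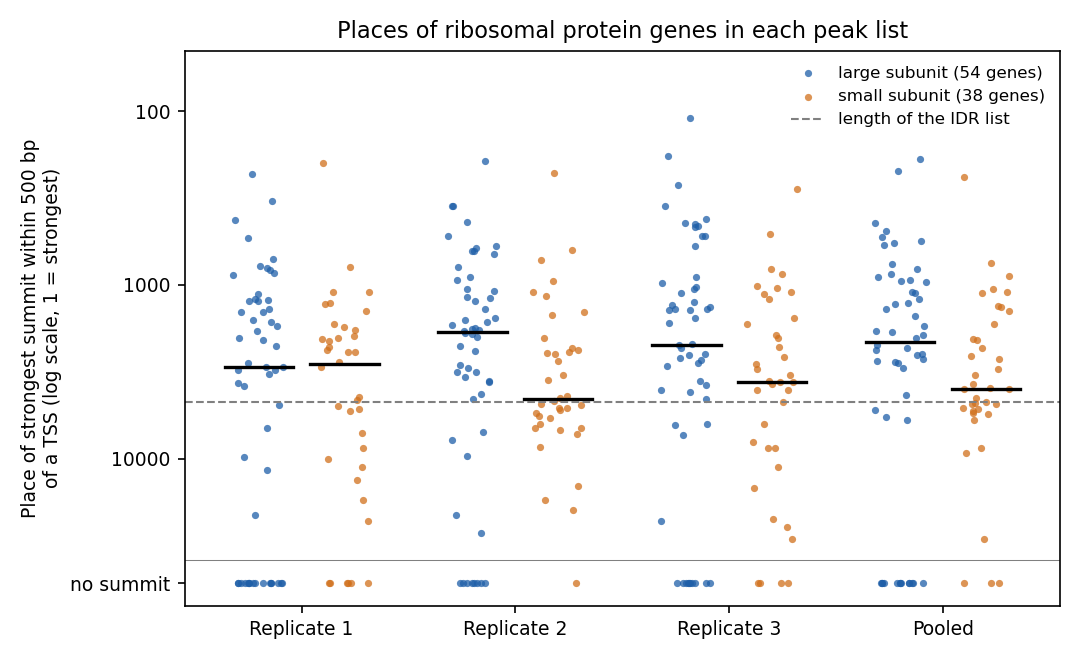
Each point is 1 ribosomal protein gene, at the place of its strongest summit within 500 bp of a TSS (log scale, strongest at the top) in the list of each replicate and in the pooled list. Black bars are medians over all genes of a subunit, with genes without a summit counted last, and the dashed line marks place 4736. Large subunit medians were 2968, 1863 and 2208 in replicates 1, 2 and 3 and small subunit medians were 2866, 4561 and 3599.

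The strongest ribosomal protein peaks stood high in every replicate. RpL34b, which encodes a large subunit protein, had a signal of 1111 and was in places 230, 193 and 181 of replicates 1, 2 and 3. RpL7, also of the large subunit, had a signal of 1012, and the replicates placed it at 331, 352 and 109. RpS27, which encodes a zinc finger protein of the small subunit, had a signal of 983 and stood at 198, 227 and 281. These peaks lay near the top of each list, and none was among the very strongest: the highest signal at any protein-coding gene was 4883. RpL32, whose transcript is widely used as a reference in fly expression studies under the name rp49, followed with a signal of 697 and stood at 421, 595 and 417. RpL23A (657), RpL14 (634), RpL11 (614), RpL19 (606), RpL30 (597) and RpS20 (532) completed the first 10. Of these 10 genes, RpS27 and RpS20 belong to the small subunit.

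At the other end, RpS28a (signal 165), RpS14b (171), RpLP0-like (177), RpS30 (187) and RpS26 (188) had the weakest IDR peaks, just above the last signal in the list, 163.9. RpS28a was among the strongest peaks of replicate 3 alone, at place 4026, with places 8620 and 5108 in replicates 1 and 2. RpS14b was at 10081, 5649 and 2590, and it too was among the strongest peaks of replicate 3 alone. Over the 61 genes the median signal was 359, with quartiles of 252 and 468, and over all protein-coding genes with an IDR peak it was 304, with quartiles of 219 and 468.

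The promoters of the 2 strongest genes, RpL34b and RpL7, are printed beside those of RpL15 and RpL5, which had no pooled summit. RpL15 and RpL5 lay beyond the last pooled summit of their arm, where missing signal and missing binding cannot be told apart. In replicate 1, RpL5 had a summit at place 3073. Each runs from 200 bases before to 20 bases after the outermost annotated start, 5′ to 3′ on the strand of the gene, from the RefSeq copy of Release 6 in dm6 coordinates. They are RpL34b at chr3R:9401207-9401426 on the minus strand, RpL7 at chr2L:10200804-10201023 on the plus strand, RpL15 at chr3L:27267055-27267274 on the plus strand and RpL5 at chr2L:22536865-22537084 on the minus strand. Capitals mark a TCT initiator within 5 bases of the printed start in RpL34b. They mark the core of Motif 1, the element bound by M1BP, in RpL7, where it lies on the opposite strand. RpL5 had a TCT initiator at another of its 3 annotated starts, and RpL7 had one at the other of its 2. An unmarked TCTTT in RpL15 lay farther than 5 bases from the printed start.
RpL34b: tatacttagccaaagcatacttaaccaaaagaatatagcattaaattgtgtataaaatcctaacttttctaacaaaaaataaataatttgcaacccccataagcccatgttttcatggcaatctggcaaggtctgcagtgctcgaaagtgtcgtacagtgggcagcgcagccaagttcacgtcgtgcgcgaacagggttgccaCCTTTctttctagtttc
RpL7: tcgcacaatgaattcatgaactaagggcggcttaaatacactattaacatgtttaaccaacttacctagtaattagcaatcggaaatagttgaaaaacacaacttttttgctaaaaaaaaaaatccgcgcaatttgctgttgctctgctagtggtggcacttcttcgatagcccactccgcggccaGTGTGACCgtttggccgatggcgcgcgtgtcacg
RpL15: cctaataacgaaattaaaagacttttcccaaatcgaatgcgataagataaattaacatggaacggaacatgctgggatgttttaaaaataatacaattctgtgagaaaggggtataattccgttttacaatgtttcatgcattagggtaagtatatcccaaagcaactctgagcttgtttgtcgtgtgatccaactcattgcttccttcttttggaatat
RpL5: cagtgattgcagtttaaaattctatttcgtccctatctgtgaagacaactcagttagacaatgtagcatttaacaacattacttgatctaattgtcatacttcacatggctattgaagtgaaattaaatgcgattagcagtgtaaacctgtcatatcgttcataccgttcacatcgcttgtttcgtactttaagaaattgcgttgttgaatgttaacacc

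The IDR summit of RpL34b lay at 9401344 on arm 3R, 118 bp upstream of its nearest TSS and inside the printed stretch. That of RpL7 lay at 10201048 on arm 2L, 44 bp downstream of a TSS and past the end of the stretch shown. The GC content of the printed stretches was 40.9% for RpL34b, 44.1% for RpL7, 34.5% for RpL15 and 35% for RpL5.

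Summits at ribosomal protein genes sat close to the start. The strongest IDR summit of each gene lay at a median of 44 bp upstream of its nearest TSS (position −44, quartiles −75 and −8), while over all 3185 protein-coding genes with an IDR peak the median was −138 (quartiles −228 and −72). It was within 100 bp of a TSS at 51 of 61 genes (83.6%), beside 30.1% of all genes with a peak. At 49 of 61 genes (80.3%) the summit was upstream, beside 88.9%. The remaining genes had it downstream, among them RpL12 at position 24, RpL3 at 32 and RpL30 at 19. The medians of the large and small subunit, −48 and −27, differed little beside the quartiles. A gene with several annotated starts has a summit near one of them more easily, and 33 of the 61 genes (54.1%) had more than 1 TSS, beside 42.8% of all genes with a peak. With the outermost start alone, the median was −32. The nearest TSS to the summit was the gene's own at 96.7% of the 61 genes and 72.9% of all genes with a peak. The part of this in the difference between the medians was not tested.

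**Figure D2:**
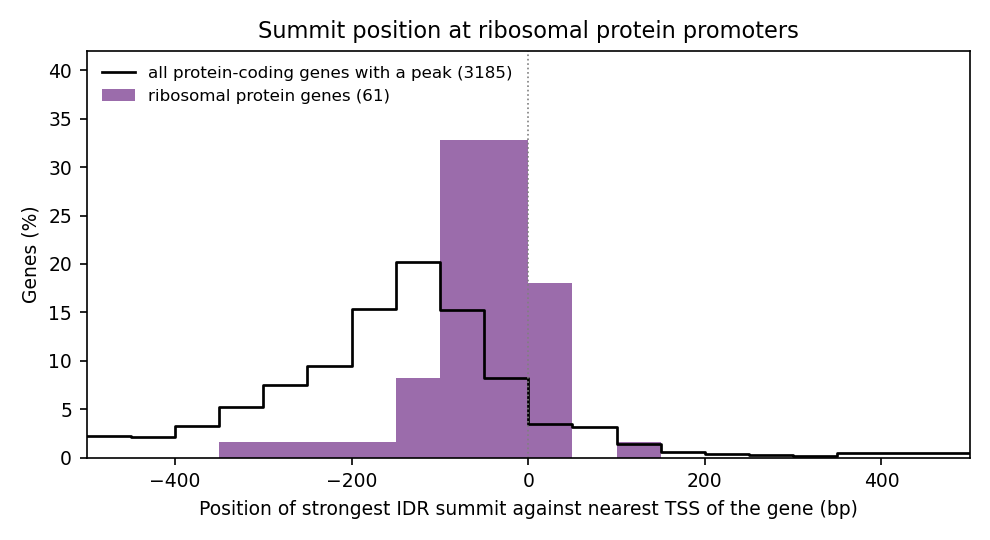
Position of the strongest IDR summit within 500 bp against the nearest TSS of the gene, in bins of 50 bp, as a percentage of genes. Negative positions are upstream. Filled bars are the 61 ribosomal protein genes with a median of −44 bp, and the line is all 3185 protein-coding genes with a peak, with a median of −138 bp.

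Each of the 61 genes had a strongest summit of its own, and 0 were shared by a pair of members. The nearest TSS to the summit belonged to the ribosomal protein gene itself at 59 of 61 (96.7%), beside 72.9% of all genes with a peak. The exceptions were RpL10Ab, whose strongest summit at position −330 was nearest to other genes while another of its IDR summits lay 119 bp from its TSS, and RpLP0-like, whose summit was nearest to 14-3-3zeta. Near the 500 bp limit there were few genes: inside it, the distance from a TSS to the nearest IDR summit was at most 162 bp, for RpS3, and it was 134 bp for RpS20. Outside it, the closest were RpS15 at 595 bp, RpS10a at 875 bp and RpS19b at 899 bp. The sequence within 100 bp of the summits had a median GC content of 42.3%, beside 33.3% over all genes with a peak. At 6 genes, all of the large subunit (RpL10Ab, RpL18, RpL23, RpL27A, RpL28 and RpLP2), there was more than 1 IDR summit within 500 bp. That is 9.84% of the 61 genes, beside 9.36% of all genes with a peak.

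Which subunit had more peaks depended on how far down the list one looked. In the IDR list a peak lay at 38 of 54 large subunit genes (70.4%, interval 56.4 to 82.0) and at 23 of 38 small subunit genes (60.5%, 43.4 to 76.0), a difference of 9.84 percentage points. The strongest peaks of the replicates gave large minus small differences of 3.22, 23.3 and 8.28 points (11.6 ± 10.4, SD, n = 3), all of 1 sign and as large as their spread. In the pooled list the order turned: 41 of 54 large subunit genes (75.9%) and 35 of 38 small subunit genes (92.1%) had a summit, a difference of −16.2 points. The 30000 peaks of the replicates gave −13.8, −12.2 and −7.99 points (−11.3 ± 3.01, SD, n = 3). These full lists held 70, 83 and 78 of the 92 genes, beside 44.5%, 52.5% and 50.1% of all protein-coding genes.

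The genes without an IDR peak differed between the subunits. Of the 16 in the large subunit, 3 had a weaker pooled summit and 13 had none. Of the 15 in the small subunit, 12 had a weaker pooled summit and 3 had none. Among all 10783 protein-coding genes without an IDR peak, 3635 had a pooled summit. The 38 large subunit genes with an IDR peak had a median signal of 392 (quartiles 275 and 503), and the 23 small subunit genes had 293 (206 and 407). These ranges overlapped widely. All 3 replicates had a summit among their strongest peaks at 31 of 54 large subunit genes (57.4%) and 13 of 38 small subunit genes (34.2%). Of the 54 large subunit genes, 5 lay beyond the last pooled summit of their arm, as described below. Without those 5, the IDR share of the large subunit was 77.6% and the difference 17.0 points, and the pooled share was 83.7% and the difference −8.43 points. With each duplicate family counted once and no "-like" genes, the IDR shares were 76.6% of 47 large and 71.0% of 31 small subunit families, a difference of 5.63 points. It was 5.07 points where the peak had to cover a TSS and 1.95 points with a window of 1000 bp.

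**Figure D3:**
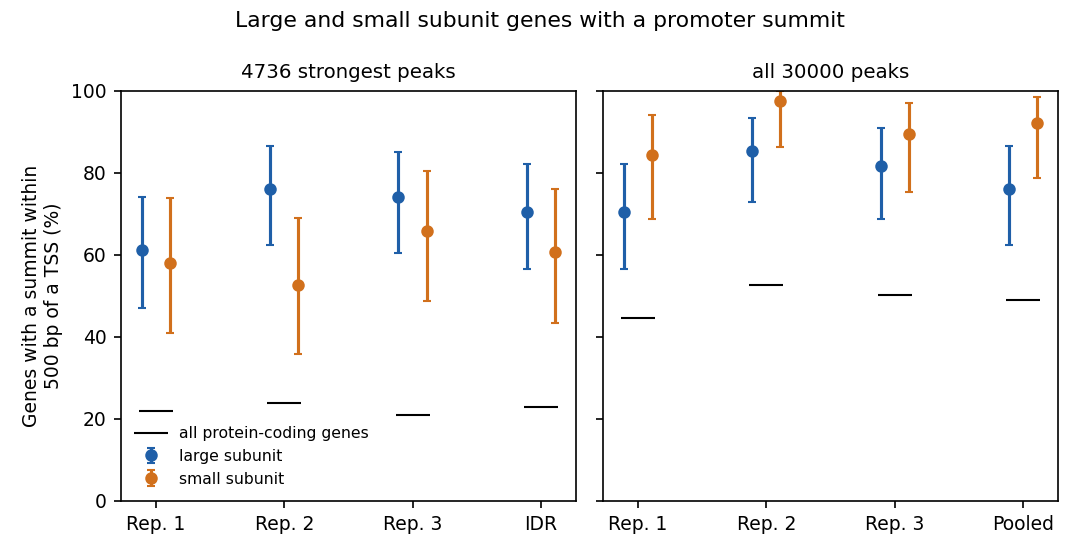
Share of large subunit genes (blue, n = 54) and small subunit genes (orange, n = 38) with a summit within 500 bp of a TSS, with exact 95% intervals that cover counting error only, in the 4736 strongest peaks of each replicate and the IDR list (left) and in all 30000 peaks of each replicate and the pooled list (right). Black bars are all protein-coding genes. The large subunit was above the small in the 4 lists on the left and below it in the 4 on the right.

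The proteins of the ribosomal stalk and a few others with known roles outside the body of the ribosome show this range. RpLP0, which anchors the stalk, had a signal of 391 and stood at 1237, 1835 and 1403. RpLP1, a stalk protein, had 318 and places 1372, 1552 and 6285, so replicate 3 stood apart. RpLP2, its partner, had 255 and places 2802, 2255 and 4528. RpS3, near the mRNA entry channel and also known for a DNA repair activity, had a signal of 246, places 1752 and 2434 in replicates 1 and 2, and no summit in replicate 3. RpS6, the best known target of S6 kinase, had no IDR peak, and its places were 2418, 5134 and 3628 with a pooled place of 5971. RpL40 and RpS27A, both made as fusions to ubiquitin, had no pooled summit within 500 bp. RpL40 had places 11556, 7845 and 22890, and RpS27A had none in any replicate.

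The 31 genes without an IDR peak fell into 15 with a weaker pooled summit and 16 with none. Of the 15, 12 belonged to the small subunit and the other 3 were RpL6, RpL7A and RpL35. Most lay just under the end of the IDR list: 12 were within pooled places 4737 to 6000, with signals from 137 to 162, where the last IDR peak had 163.9. The median pooled place of the 15 was 5438 (quartiles 5169 and 5963). Over all 3635 protein-coding genes with a pooled summit and no IDR peak, it was 11243 (quartiles 7186.5 and 18351.5). RpS23 came first, in place 4804. RpL7A was among the strongest peaks of each replicate, at 3690, 4545 and 3742, and still had a pooled place of 5955. Of the other 3, RpS10a and RpS19b, each a copy of another gene, were at 8672 and 9272. The summit of RpS19b, at position −213, was nearest to the TSS of CG5854. The remaining 1 lay beyond place 10000 with a signal of 41.3. The strongest pooled summits of all 15 lay at a median position of −62.

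The 16 genes without a pooled summit were grouped after their values were seen. The first 5, RpL5, RpL10, RpL15, RpL21 and RpL38, are large subunit genes that lay between the centromere and the last pooled summit of their arm. RpL5 is known to carry 5S rRNA into the ribosome with RpL11, and RpL10 is known to join the large subunit late in its assembly. The distance to that summit was 154427 bp for RpL10 and 4326211 bp for RpL15 on arm 3L, 452910 bp for RpL21 and 741919 bp for RpL5 on arm 2L, and 1173616 bp for RpL38 on arm 2R. No pooled summit lay within 100 kb of any of the 5. In all, 143 protein-coding genes started beyond the last pooled summits of these 3 arms, where 37, 22 and 3 of the 30000 summits of replicates 1, 2 and 3 lay. RpL5 had a summit in replicate 1 at place 3073, and the other 4 had none in any replicate. Every 50-base stretch within 250 bp of their starts occurred once in the assembly. Whether the authors' processing masked these regions is not given in the sources used here, and missing signal and missing binding there cannot be told apart.

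A second set of 7 consisted of copies and "-like" genes, RpL7-like, RpL10Aa, RpL22-like, RpL24-like, RpL37-2, RpS15Ab and RpS28-like. The nearest pooled summit was 692 bp from RpS28-like and 695 bp from RpL7-like, just outside the window, and 1787 to 7875 bp from the others. The last 4 were RpL9, RpL13, RpL40 and RpS27A. The nearest pooled summit was 602 bp from RpL40, 1028 bp from RpL13, 4688 bp from RpL9 and 20363 bp from RpS27A. Of all 92 genes, 8 (8.70%) had no summit in any of the 3 full replicate lists, beside 34.1% of all protein-coding genes.

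RpL13 stood apart from the other 15. It shares its promoter with Dref, which encodes a factor known at ribosomal protein promoters and whose TSS lay 84 bp away on the other strand. Replicates 2 and 3 had a summit there at places 934 and 1027, replicate 1 had none, and neither the pooled nor the IDR list had one within 500 bp. A summit among the strongest peaks of at least 2 replicates was found at 66 ribosomal protein genes, and RpL13 was the only 1 of them without a pooled summit (1.52%). Over all protein-coding genes it was 91 of 3057 (2.98%). RpS3A, the sole ribosomal protein gene on arm 4, had an IDR peak of signal 371, at places 1486 and 1094 of replicates 2 and 3. It had no summit in replicate 1, whose list held 2 summits on that arm, where replicates 2 and 3 held 46 and 21.

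Pairs of related genes mostly had an IDR peak at 1 gene and not at the other. The 14 pairs, 5 of them with a "-like" gene, held 27 genes of 13 families, because RpS28b is in 2 pairs. Of the 14, 11 had an IDR peak at 1 gene, 3 at both and 0 at neither. With all pooled peaks, 7 of the 14 had a summit at 1 gene only and 7 at both. Of the 27 genes, 16 had an IDR peak, beside 61 of all 92 members and 22.8% of all protein-coding genes. The 3 pairs with an IDR peak at both were RpL34a with RpL34b, RpS28a with RpS28b, and RpLP0 with RpLP0-like. The summit of RpLP0-like was nearest to 14-3-3zeta. Protein identity in a global alignment was lowest for the pairs with RpLP0-like (17.5%), RpL24-like (27.8%), RpL7-like (32.3%) and RpS28-like (38.2%). Without the pairs of RpLP0, RpL24 and RpL7, 9 of 11 had a peak at 1 gene and 2 at both. RpL34b was in places 230, 193 and 181 of the replicates and RpL34a in places 821, 1194 and 1337, so RpL34b was higher in each. RpS28b was in places 1287, 956 and 1047 and RpS28a in 8620, 5108 and 4026.

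Some of the copies without an IDR peak are best known from the germ line. RpS19a was in places 2363, 2376 and 862, and RpS19b, whose protein was 65.4% identical in a global alignment, in 22715, 6649 and 22074. RpS10b was in places 1106, 2481 and 2034, and RpS10a (73.0%) in 17297, 8579 and 7969. In both of these pairs the replicate places of the genes did not overlap. The pooled summit of RpS19b was nearest to the TSS of CG5854. RpL22 was in places 1628, 785 and 464, while RpL22-like (40.7%) had no summit in any list. RpL10Ab was in places 858, 4246 and 4049 and RpL37-1 in 2956, 3391 and 2623, and their copies RpL10Aa and RpL37-2 had none in any list either. RpS15Aa was in places 4617, 4365 and 2267, and RpS15Ab (97.7%) only in place 14299 of replicate 2. For RpS15Ab, 83.8% of 50-base stretches within 250 bp of the start were unique, against 100% for RpS15Aa, and the part of this in the missing peak was not tested. Among all 92 genes the next lowest value was 95.6%, for RpL17.

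RpS14a and RpS14b, neighbours on the X chromosome that encode identical proteins of the small subunit, fell on either side of the IDR limit. RpS14b was in pooled place 4450 and RpS14a in 5310. RpS14a was higher in replicate 1 (2089 against 10081), and RpS14b was higher in replicate 2 (5649 against 6693) and replicate 3 (2590 against 4734). The order of this pair thus differed between replicates. In 5 pairs 1 copy has no intron, namely RpL10Aa, RpL37-2, RpS10a, RpS15Ab and RpS28a. The copy with introns had an IDR peak in all 5, and the copy without had one in 1, RpS28a. In other pairs, genes with introns also lacked an IDR peak, among them RpL22-like, RpS14a, RpS19b, RpL7-like, RpL24-like and RpS28-like. These counts have no share over all protein-coding genes beside them, and a link with introns was not tested.

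**Figure D4:**
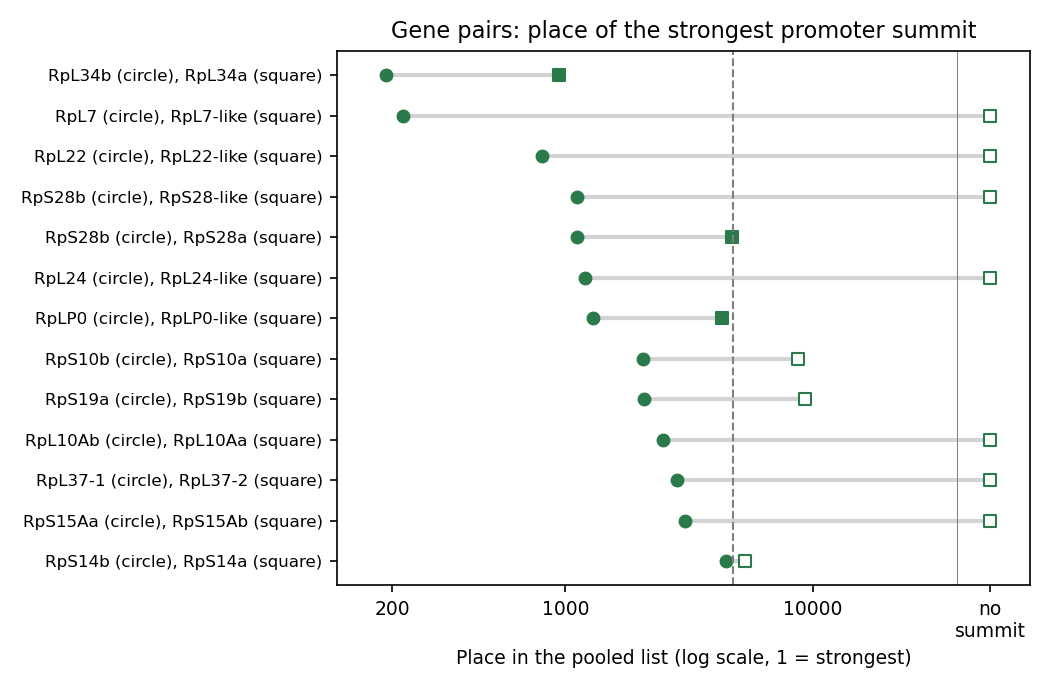
Each row is a pair of related ribosomal protein genes (1 of the 14 pairs is not shown), with the place of the strongest promoter summit of each gene in the pooled list on a log axis, strongest at the left. Filled symbols have an IDR peak, the dashed line marks place 4736, and genes without a pooled summit stand at the right. In 3 rows both symbols are filled, and in each of the others 1 is.

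Initiators and neighbours of the genes were then set against their peaks. A TCT initiator, written as TCTTT or CCTTT on the sense strand with its C within 5 bases of an annotated TSS, was found at 56 of 92 ribosomal protein genes (60.9%) and at 3.31% of all protein-coding genes. Its share was similar in the 3 peak classes: 38 of 61 genes with an IDR peak (62.3%), 9 of 15 with a weaker pooled summit (60%) and 9 of 16 with none (56.2%). To show the element, the 30 bases around the outermost start are printed for the RpS19 pair, with the TCT element in capitals. Their places are chrX:16637879-16637908 (RpS19a, plus strand) and chr3R:23933516-23933545 (RpS19b, minus strand).
RpS19a: ccaacttcacgcgccttgtTCTTTtttccg
RpS19b: acttgccaatcgtccattttgactaaagtc

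RpS19a carried it and RpS19b did not, with pooled places of 2082 and 9272, the latter for a summit nearest to the TSS of CG5854. Other pairs did not follow this order: RpL37-1, with an IDR peak, lacked the element and RpL37-2, with no summit in any list, carried it, and RpS14a and RpS14b both carried it. Other motifs were sought on both strands from 250 bases before to 50 after the outermost start. The DNA replication-related element (DRE) bound by Dref, TATCGATA, was in 28 of 92 promoters (30.4%) and in 9.36% of all protein-coding promoters. With an IDR peak 20 of 61 held it (32.8%), with a weaker pooled summit 5 of 15 (33.3%) and with none 3 of 16 (18.8%). The Motif 1 core, GGTCACAC, was in 14 (15.2%), beside 7.69% of all. Its share was 13.1%, 33.3% and 6.25% in the same 3 classes. Over all protein-coding genes, it was in 12.8% of those with an IDR peak and 6.18% of those without. For the DRE these shares were 14.1% and 7.96%. GAGAG was in 17.4%, beside 29.7% of all, TATAAA in 47.8%, beside 45.8%, and the E-box CACGTG in 8.70%, beside 4.20%. All 8 promoters with that E-box belonged to large subunit genes.

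A divergent neighbour, a protein-coding TSS upstream within 1000 bp on the other strand, was found at 40 of 61 genes with an IDR peak (65.6%), 8 of 15 with a weaker pooled summit (53.3%) and 7 of 16 with none (43.8%). The share was 36.2% over all protein-coding genes and 62.8% over those with an IDR peak. Ribosomal protein genes with a peak thus had such neighbours about as often as other genes with a peak. Median promoter GC content was 38.3% with an IDR peak and 35.3% without, beside 38% for all protein-coding genes. Over all protein-coding genes the order was the other way, with 36.7% with an IDR peak and 38.3% without. In 100 bases around the start, the ribosomal protein genes with and without a peak differed by 6 points. Genes that carry small nucleolar RNAs, which guide the modification of rRNA, within their bounds on the same strand made up 22 of 61 with an IDR peak (36.1%), 4 of 15 with a weaker summit (26.7%) and 2 of 16 with none (12.5%). Over all protein-coding genes such hosts made up 1.51% of those with an IDR peak and 0.362% of those without. Ribosomal protein genes are themselves 22 of the 48 hosts with an IDR peak and 6 of the 39 without, so this background is in part the same genes.

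**Figure D5:**
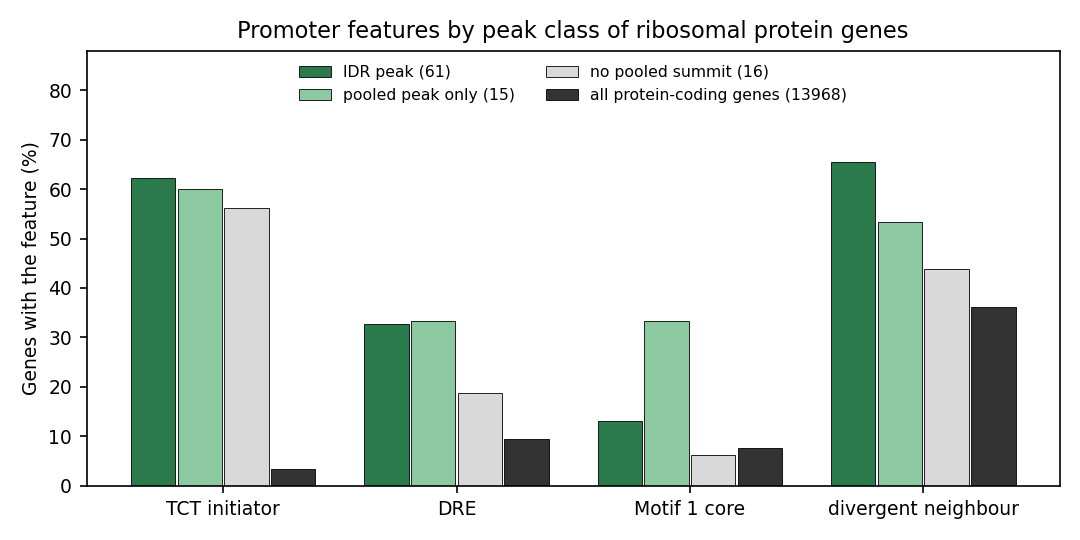
Share of genes (%) with a TCT initiator, a DRE, the Motif 1 core or a divergent neighbour within 1000 bp, for ribosomal protein genes with an IDR peak, with a weaker pooled peak only and with no pooled summit, and for all protein-coding genes. The TCT share lies between 56.2% and 62.3% in the 3 classes of ribosomal protein genes, beside 3.31% of all genes.

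Other genes of the ribosome pathway were described in the same way. Of 4 genes outside the symbol rule whose products sit on the ribosome, 3 had an IDR peak: sta, which encodes the small subunit protein SA, with a signal of 269, Rack1, a scaffold on the small subunit, with 413, and Nacalpha of the nascent polypeptide-associated complex with 450. Its partner bic had none. Their summits lay at −41, −8 and −26. Of 29 genes for ribosome assembly and rRNA modification, 10 had an IDR peak (34.5%, interval 17.9 to 54.3). Among them eIF6, whose product keeps the large subunit from joining early, had a signal of 2382 and stood at 29, 37 and 21, above any ribosomal protein gene. Ns2, a nucleostemin family GTPase gene, had 1171 and places 194, 182 and 156. NHP2 and Fib, of the pseudouridylation and methylation complexes, had 623 and 468. Tif-IA, counted without a peak, has a TSS 2001 bp from a TSS of RpL21, beyond the last pooled summit of arm 2L. Missing signal and missing binding cannot be told apart there. Of 7 RNA polymerase I subunit genes, 2 had a peak, Polr1B and Polr1D. None of the 4 genes for factors known at ribosomal protein promoters (M1BP, Dref, Trf2 and Myc) had an IDR peak. Dref was at places 934 and 1027 of replicates 2 and 3, with no summit in replicate 1. M1BP had a summit in replicate 2 alone, at 2338. Trf2 was at 9843 and 3413 in replicates 2 and 3, and Myc at 27845, 10703 and 9394 in the 3 replicates. Their pooled places were 11773 for Trf2 and 12463 for Myc. Together 15 of these 44 genes (34.1%, interval 20.5 to 49.9) had an IDR peak, beside 22.8% of all protein-coding genes.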

How the data were processed

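The authors deposited 5 narrowPeak lists on dm6, per the deposited description files: 1 for each of 3 replicates, 1 for the pooled replicates and 1 after an IDR threshold. The deposited signal of each peak ranked it within its list, its deposited −log10 q served to describe the lists, and summits were placed by the offset in the lists. Each list was derived from the alignments and 1 further file that the descriptions do not identify. The sources used here name no aligner, peak caller or IDR threshold. The files give no read counts, so depth is unknown, and intervals (exact Clopper-Pearson, 95%) cover counting error only. Columns of samples outside the series numbered 0.

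Gene models and TSSs came from Ensembl release 115 and bases from the RefSeq genome of Release 6, in the coordinates of dm6. Summits within 500 bp of a TSS were assigned to genes with Python 3.11.15, numpy 2.4.6, scipy 1.17.1, Biopython 1.88 and matplotlib 3.10.9, and the assignment was tested on simulated peaks. Proteins of a pair were translated from the annotation and aligned globally. With 1 group and no control sample among those analysed here, no test between conditions was possible, and genes of 1 list are not replicates, so shares are given beside those of all protein-coding genes. Members, pairs and gene lists were chosen with earlier results of these data known. Genes named are the 10 strongest and 5 weakest, all genes of pairs, those without a pooled summit, those nearest the window limit, some with known roles, and members of small counts. Other genes named were chosen after their values were seen, and some genes that enter the counts are not reported here by name. Alternatives covered the window, the list, the starts used and each replicate left out.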

Additional observations from a re-analysis of the deposited data

How the results depend on the processing

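The direction of the subunit difference reversed in 1 alternative: with all pooled peaks the large subunit share was 16.2 points below the small (−16.2). Leaving out 1 replicate, with each IDR summit required to lie in a strong peak of both others, gave 12.4 to 25.3 points, and a window of 1000 bp gave 1.95. These leave-outs started from the IDR list, which drew on all 3 replicates. The replicate left out thus still shaped which summits could count. The same leave-outs lowered the share of ribosomal protein genes with a peak to between 46.7% and 54.3%, a stricter rule by construction, and that of all protein-coding genes to between 13.0% and 16.3%. The 2368 strongest IDR peaks gave 45.7% (13.2% of all protein-coding genes) and all pooled peaks 82.6% (48.8%). With the 2368 strongest peaks of each replicate, the mean share was 45.3% (13.0%), with the 9472 strongest 76.4% (32.5% of all protein-coding genes) and with all peaks 83.7% (49.0%). With all pooled peaks, 7 pairs in place of 11 had a summit at 1 gene only. In 100 bases around the start, promoter GC differed by 6 points between genes with and without a peak, in place of 3. Leaving out the genes beyond the last pooled summit, and the windows for other ribosome genes, were chosen after seeing the data. The remaining alternatives for the 10 results kept their direction and, the pair count aside, moved by less than the replicate spread or interval. The pair count has neither, and its remaining alternatives gave 9 to 12 pairs of 14. No paired analysis was possible because there was 1 group. Unknown depth limits every statement that a gene lacked a peak.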
